A study of Mus musculus with 16 samples.

Results

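The 10 genes of MHC class I antigen presentation described here, of 24951 genes listed in both the count and the TPM table, were followed across 16 primary mouse rhabdoid tumors. They were taken by name: the heavy chain genes H2-K1 and H2-D1, the light chain gene B2m, the peptide transporter genes Tap1 and Tap2, the loading factor gene Tapbp, the peptidase gene Erap1, the immunoproteasome genes Psmb8 and Psmb9, and the regulator gene Nlrc5. All tumors came from Smarcb1flox/flox;R26-CreERT2 mice, in which a tamoxifen-inducible Cre expressed from the ubiquitous Rosa26 locus deletes Smarcb1 in cells of unrestricted type, and each tumor came from a different mouse. The mice were on a mixed 129/SV and C57BL/6 background. Groups followed the tumor site in the sample labels. There were 5 intra-CNS tumors, within the central nervous system, all induced at E6 and collected at 30 to 180 days of age. There were 6 intracranial extra-CNS tumors, inside the skull but outside the central nervous system, with tamoxifen at E8 in 4, E7 in 1 and E6 in 1, collected at 52 to 170 days. There were 5 extracranial tumors (back, jaw, nose, mouth and jaw), with tamoxifen at E8 in 4 and E6 in 1, collected at 80 to 210 days. The study assigned the intra-CNS tumors to its Shh subgroup and the other 11 to its Myc subgroup. Subgroup and site cannot be told apart here, and all 5 intra-CNS tumors had tamoxifen at E6, as did 2 of the 11 others. No normal tissue and no Smarcb1-intact tumor was among the 16 samples.

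MHC class I molecules present peptides of intracellular proteins at the surface of nearly all nucleated cells, where CD8 T cells read them. Proteasomes cut proteins into peptides, and the immunoproteasome carries the inducible catalytic subunits Psmb8 and Psmb9 in place of the constitutive Psmb5 and Psmb6. The Tap1 and Tap2 heterodimer pumps the peptides into the endoplasmic reticulum, Erap1 trims them there, and tapasin, the product of Tapbp, holds the heavy chain with its light chain beta-2-microglobulin at the transporter until a peptide is bound. Nlrc5 is the transactivator of class I genes. It acts through the RFX, CREB and NF-Y factors that sit on the promoter, and interferon gamma induces most of the pathway. The brain parenchyma is known for low class I expression under normal conditions.

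Of the 10 genes, 7 lie on mouse chromosome 17 (GRCm38, GENCODE vM21 coordinates). H2-K1 is at chr17:33996017-34000347 on the minus strand and H2-D1 at chr17:35262730-35267499 on the plus strand, and Tapbp is at chr17:33915899-33929292. Psmb9 (chr17:34181987-34187764), Tap1 (chr17:34187553-34197225), Psmb8 (chr17:34197721-34201454) and Tap2 (chr17:34203527-34216321) follow each other in one block, and Psmb9 and Tap1 are transcribed in opposite directions with overlapping 5′ ends. B2m is at chr2:122147686-122153083, Nlrc5 at chr8:94434356-94527272 and Erap1 at chr13:74639568-74693201. Class I heavy chain genes resemble each other, so that reads can be assigned to a wrong copy. Of the 100-base windows in the protein-coding transcripts of H2-D1, 4.09% also occur in transcripts of other genes, most of them other class I genes. The share was 0% for H2-K1 and 0.097% for Tapbp, and 0% for the other 7 genes.

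Promoters of the genes are shown for the motifs that class I regulators are known to use. RefSeq (GRCm38.p6) start sites were found for 8 of the 10 genes, and each window runs from 250 bases before the start to 20 bases after it, 5′ to 3′ on the strand of the gene. Capitals mark every match, on either strand, to the interferon-stimulated response element core (GAAA, any 2 bases, GAAA), the gamma-activated site TTCNNNGAA, the CCAAT box (CCAAT), the CRE half-site TGACG of the class I X2 element, or the NF-kB consensus. H2-K1 (chr17:34000328-34000597, minus strand) and H2-D1 (chr17:35262844-35263113, plus strand) are the heavy chain genes, and B2m (chr2:122147437-122147706, plus strand) is their light chain gene. Tap1 (chr17:34187306-34187575, plus strand) shares 265 bases of its window with that of Psmb9, which reads the other strand. Psmb8 (chr17:34197945-34198214, plus strand) holds the one gamma-activated site, and Erap1 (chr13:74639603-74639872, plus strand) is the gene with the smallest difference between the groups of tumors.
H2-K1: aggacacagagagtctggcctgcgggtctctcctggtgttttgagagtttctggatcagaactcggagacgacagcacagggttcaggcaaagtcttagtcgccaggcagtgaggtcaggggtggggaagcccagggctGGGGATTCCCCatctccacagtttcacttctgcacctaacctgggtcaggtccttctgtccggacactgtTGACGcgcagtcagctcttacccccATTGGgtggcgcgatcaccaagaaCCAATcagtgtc
H2-D1: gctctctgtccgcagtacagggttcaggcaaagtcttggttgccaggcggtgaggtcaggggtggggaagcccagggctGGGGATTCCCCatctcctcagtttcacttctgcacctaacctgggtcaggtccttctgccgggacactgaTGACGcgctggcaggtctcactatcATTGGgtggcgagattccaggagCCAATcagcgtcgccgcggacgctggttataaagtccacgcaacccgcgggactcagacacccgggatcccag
B2m: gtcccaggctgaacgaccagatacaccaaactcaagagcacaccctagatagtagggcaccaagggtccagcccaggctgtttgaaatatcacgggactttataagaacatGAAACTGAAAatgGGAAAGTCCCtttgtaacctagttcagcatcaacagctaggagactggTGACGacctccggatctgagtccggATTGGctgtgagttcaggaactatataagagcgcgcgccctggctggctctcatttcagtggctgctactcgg
Tap1: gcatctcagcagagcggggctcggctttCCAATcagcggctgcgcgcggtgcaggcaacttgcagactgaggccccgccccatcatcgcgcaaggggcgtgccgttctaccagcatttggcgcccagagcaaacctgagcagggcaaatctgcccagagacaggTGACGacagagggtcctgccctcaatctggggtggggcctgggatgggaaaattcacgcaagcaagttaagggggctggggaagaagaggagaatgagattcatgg
Psmb8: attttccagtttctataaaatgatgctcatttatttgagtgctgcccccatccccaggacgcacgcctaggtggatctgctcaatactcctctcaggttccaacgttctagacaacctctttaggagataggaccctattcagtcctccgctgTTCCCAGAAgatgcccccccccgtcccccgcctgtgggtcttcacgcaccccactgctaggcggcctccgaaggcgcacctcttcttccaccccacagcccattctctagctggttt
Erap1: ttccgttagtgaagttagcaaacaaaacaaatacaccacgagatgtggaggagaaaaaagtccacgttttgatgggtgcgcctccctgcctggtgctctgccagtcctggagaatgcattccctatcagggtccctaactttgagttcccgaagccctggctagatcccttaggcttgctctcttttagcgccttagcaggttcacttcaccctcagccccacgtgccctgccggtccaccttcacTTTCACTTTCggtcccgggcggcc
With an offset of 60 bases, 80.5% of 210 compared bases were identical between the H2-K1 and H2-D1 windows. Both hold, in the same order, an NF-kB match of overlapping copies, a TGACG and 2 CCAAT matches. B2m holds an interferon-stimulated response element, an NF-kB match, a TGACG and a CCAAT match. The CRE half-site was found in 5 of the 8 windows, against 19.4% of the 32851 windows of the whole table, and the CCAAT box in 6 of 8, against 35.4%. The NF-kB consensus was found in 3 of 8 (7.69% of all windows), the interferon-stimulated response element in 2 of 8 (3.21%) and the gamma-activated site in 1 of 8 (7.58%). The 2 interferon elements overlap no other match, and the Tap1 and Psmb9 counts rest largely on the same bases. A match describes letters and not a bound factor.

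Total counts per tumor ranged from 17889968 to 110177889, with 23711872 to 67455067 in the intra-CNS group. Smarcb1, the deleted gene, had 3.99 to 58.1 TPM in the intra-CNS tumors and 6.48 to 43.7 TPM in the others, with 29048 and R26P115 highest. In bulk tumors fewer cells of a type and less RNA per cell cannot be told apart, and this holds for every gene below. Of 8 neural progenitor and neuron markers, 6 were called higher in the intra-CNS tumors. Sox2 had 148 to 492 TPM there and 0 to 31.8 TPM elsewhere, while Nes had 35 to 100 TPM there and 3.21 to 258.7 TPM elsewhere and was not called. The intra-CNS tumor of mouse 29048 also held oligodendrocyte transcripts, with 7200 TPM summed over 8 markers, against a median of 104 TPM in its group.

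The first comparison asked how the pathway differed between intra-CNS tumors and the 11 tumors outside the CNS. All 10 genes were lower in the intra-CNS tumors, by 3.34-fold (Erap1) to 11.4-fold (Psmb8), and all 10 were called by edgeR's quasi-likelihood test, at an adjusted p under 0.05 over 21854 genes and an absolute log2 fold change above 1. Of all genes tested, 13.1% were called lower in intra-CNS tumors and 12.9% higher. The median log2 fold change of the 10 genes was -2.88, against -0.15 over all genes tested. In TMM-normalized counts the lowest of the 11 tumors lay above the highest intra-CNS tumor for 9 of the 10 genes, a separation in this direction that 5.72% of all genes showed. Nlrc5 was the exception. The plot of TPM by group shows these levels tumor by tumor.

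**Figure D1:**
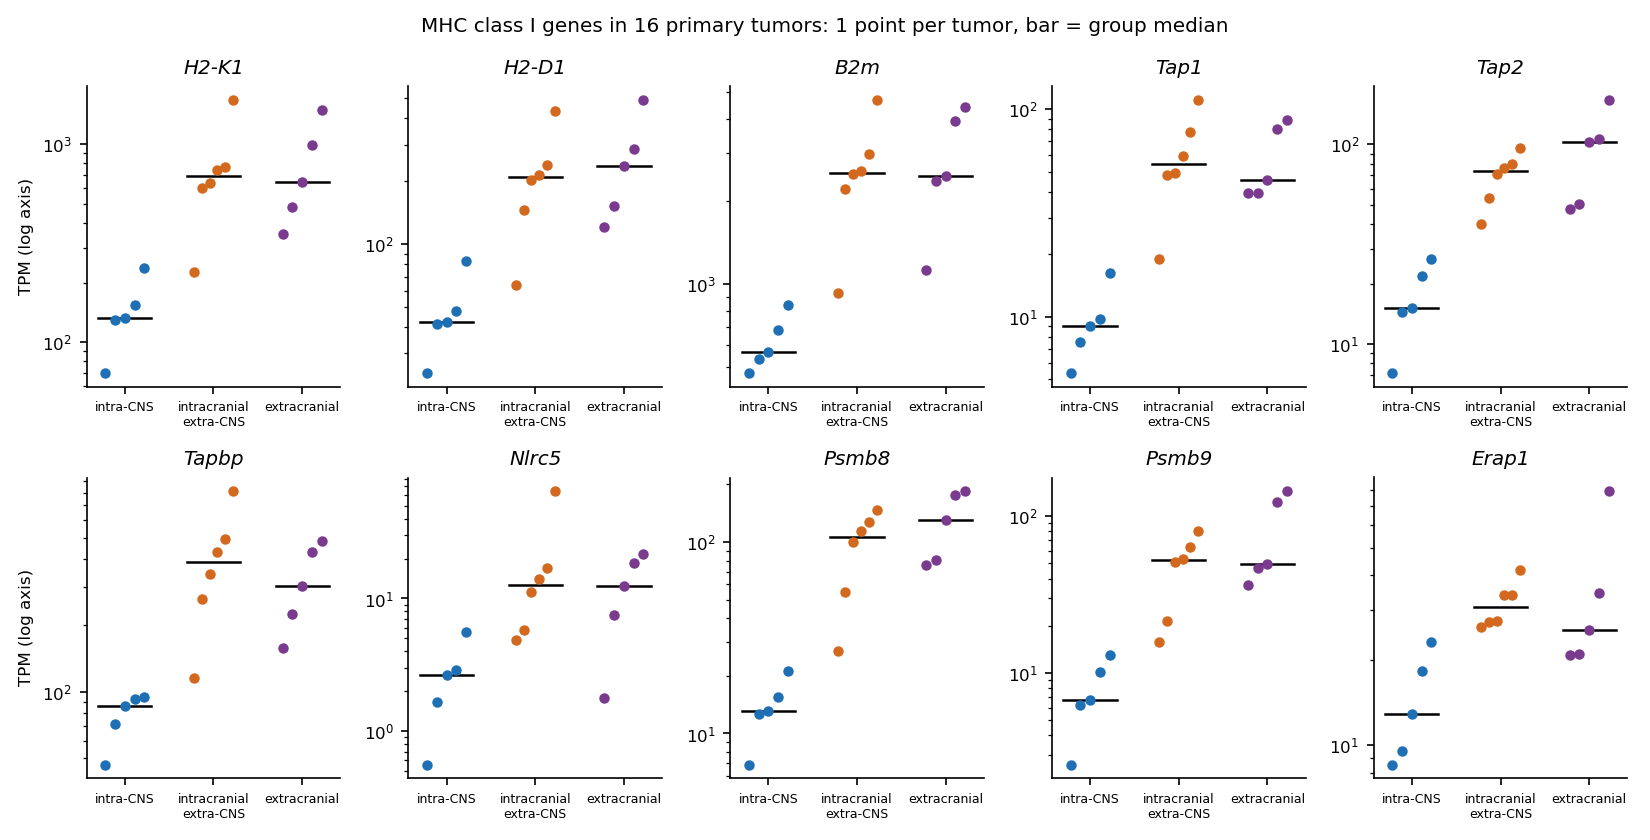
TPM (log axis) of each gene in the 5 intra-CNS, 6 intracranial extra-CNS and 5 extracranial tumors, with 1 point per tumor, points sorted within a group, and a bar at the group median. The intra-CNS median is the lowest of the 3 for each gene, and the 2 groups outside the CNS cover much the same range.

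H2-K1, a classical heavy chain gene, had 132.9 TPM in 29048, 154.4 in 38594A, 129.6 in 29050A, 235.6 in R26P98 and 69.7 in R26P87. Outside the CNS it ranged from 225.9 TPM (R26P115) through a median of 642.8 to 1682 (R26P170). On the TPM scale R26P98 lay just above R26P115, and the other 4 intra-CNS tumors lay below all 11. The log2 fold change was -2.95 ± 0.46 (SE), with an edgeR adjusted p of 0.00018.

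H2-D1, the second classical heavy chain gene, was less abundant than H2-K1 in every tumor. It had 41.7, 42.3, 47.8, 82.7 and 24.2 TPM in 29048, 38594A, 29050A, R26P98 and R26P87, and 64.1 (R26P115) to 491.7 TPM (43825B) outside the CNS, with a median of 213.9. R26P98 again exceeded R26P115 and none of the others. The log2 fold change was -2.81 ± 0.45 (SE, edgeR adjusted p = 0.00022). The ratio of H2-D1 to H2-K1 was 0.274 to 0.369 in intra-CNS tumors and 0.242 to 0.37 outside, which is the narrowest range of the 10 ratios computed. The ratio did not differ detectably between the groups, with a log2 difference of 0.12 ± 0.1 (SE, exact permutation test, two-sided, p = 0.24, adjusted over 20 ratio tests 0.48).

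B2m, the light chain that every class I heavy chain needs, was the most abundant of the 10 genes in all 16 tumors. It had 564.1 TPM in 29048, 531.6 in 38594A, 677.3 in 29050A, 839.6 in R26P98 and 473.6 in R26P87. Outside the CNS it had 930.1 (R26P115) to 4696 TPM (R26P170), with a median of 2511. No intra-CNS tumor reached any of the 11 others, and the log2 fold change was -2.67 ± 0.36 (SE, edgeR adjusted p = 6.4e-05). Within a tumor B2m stood at 3.44 to 6.8 times H2-K1 in the intra-CNS group and at 2.79 to 5.13 times outside (log2 difference 0.3 ± 0.2, exact permutation p = 0.12, adjusted 0.34).

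Tap1 and Tap2 encode both chains of the peptide transporter. Tap1 had 9.04 TPM in 29048, 9.75 in 38594A, 7.6 in 29050A, 16.2 in R26P98 and 5.36 in R26P87, and 18.9 (R26P115) to 111.2 TPM (R26P170) outside the CNS, with a median of 49.6. The groups did not overlap, with a log2 fold change of -3.15 ± 0.39 (SE, edgeR adjusted p = 3.3e-05). Tap2 had 21.8, 14.5, 15.2, 26.6 and 7.16 TPM in the same 5 tumors and 39.8 (R26P115) to 167.5 TPM (43998A) outside, with a median of 76.6. These groups did not overlap either, with a log2 fold change of -2.77 ± 0.39 (SE, edgeR adjusted p = 8e-05). Tap2 exceeded Tap1 1.33- to 2.41-fold in the intra-CNS tumors. The ratio had a wider range outside, from 0.689 in R26P170 to 4.25 in 43998A.

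Tapbp had 71.7 TPM in 29048, 86.4 in 38594A, 92.7 in 29050A, 95.1 in R26P98 and 46.7 in R26P87. Outside the CNS it ranged from 116 (R26P115) to 811.7 TPM (43992A), with a median of 341.9, and the groups were apart. Its log2 fold change was -2.76 ± 0.42 (SE, edgeR adjusted p = 0.00015). The range was 2.03-fold over the 5 intra-CNS tumors, 3.05-fold over the 5 extracranial ones and 7-fold over the 6 intracranial extra-CNS ones.

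Erap1, which trims peptides to the length that fits class I, showed the smallest difference of the 10. It had 12.9 TPM in 29048, 9.54 in 38594A, 18.2 in 29050A, 23.2 in R26P98 and 8.54 in R26P87. Outside the CNS it had 20.9 (43998A) to 79.2 TPM (43990A), with a median of 27.6, and R26P98 exceeded both 43998A and 43987A (21.1 TPM). The log2 fold change was -1.74 ± 0.33 (SE, edgeR adjusted p = 0.00091). Erap1 relative to H2-K1 was higher in the intra-CNS tumors, at a median ratio of 0.0984 against 0.0438, with a log2 difference of 1.11 ± 0.33. This difference did not pass after adjustment (exact permutation test, two-sided, p = 0.016, adjusted over 20 ratio tests 0.08).

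Psmb8 and Psmb9, the inducible proteasome subunits, had the largest fold changes. Psmb8 had 13.1 TPM in 29048, 12.6 in 38594A, 15.5 in 29050A, 21.2 in R26P98 and 6.88 in R26P87, against 26.9 (R26P115) to 184.2 TPM (43990A) outside the CNS, with a median of 113.5. Its log2 fold change was -3.51 ± 0.43 (SE, edgeR adjusted p = 3.1e-05). Psmb9 had 6.74, 6.29, 10.2, 13.1 and 2.61 TPM in the same 5 tumors and 15.7 (R26P115) to 144.2 TPM (43990A) outside, with a median of 50.9. Its log2 fold change was -3.5 ± 0.55 (SE, edgeR adjusted p = 0.00021). Neither gene overlapped between the groups.

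The constitutive counterparts overlapped more between the groups. Psmb5, which Psmb8 replaces, had 69.7 to 88.7 TPM in the intra-CNS tumors and 50.7 to 124.5 TPM outside. Psmb6, which Psmb9 replaces, had 260.2 to 323.9 and 185.8 to 269.5 TPM. Psmb8 stood at 0.0986 to 0.302 of Psmb5 in the intra-CNS tumors and at 0.498 to 2.35 of it outside, and 9 of the 11 tumors outside the CNS held more Psmb8 than Psmb5. The mean log2 ratio was lower by 2.88 ± 0.32 in the intra-CNS group (SE, exact permutation test, two-sided, p = 0.00046, adjusted over 20 ratio tests 0.0046). The ratio of Psmb9 to Psmb6 was 0.0096 to 0.0466 in the intra-CNS tumors and 0.08 to 0.684 outside, a log2 difference of -3.24 ± 0.5 (exact permutation p = 0.00046, adjusted 0.0046). Psmb10, the third inducible subunit and one of the other pathway genes, stood at 0.0659 to 0.145 of its constitutive counterpart Psmb7 in the intra-CNS group and outside it at 0.0958 or more, with a median of 0.248 (log2 difference -1.7 ± 0.32, exact permutation p = 0.00092, adjusted 0.0061). The Psmb8 and Psmb9 ratios were apart between the groups in every tumor, which gives the smallest p this test can reach, and those of Psmb10 overlapped. The ratios were chosen after the levels were seen. Psmb8 and Psmb9 were already apart in level, so the tests of their ratios are not independent of that separation. Within the pair, Psmb9 relative to Psmb8 had a log2 difference between the groups of -0.01 ± 0.25 (exact permutation p = 0.91, adjusted 0.92).

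**Figure D2:**
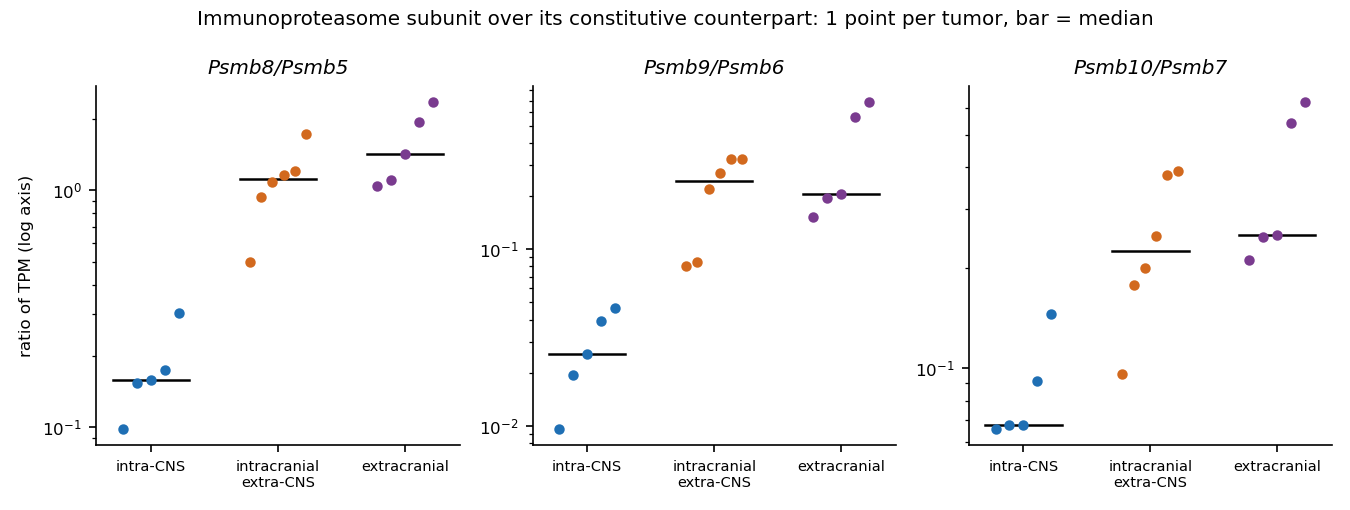
Ratio of TPM (log axis) of each inducible proteasome subunit to its constitutive counterpart, with 1 point per tumor in each of the 3 groups and a bar at the group median. For Psmb8/Psmb5 the 5 intra-CNS tumors reach at most 0.302 and the other 11 start at 0.498.

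Over all 14 constitutive subunits, 0 were called in either direction, with a median log2 fold change of -0.56. Without the fold threshold, 12 of the 14 had an edgeR adjusted p under 0.05, all toward lower values in intra-CNS tumors. At that cutoff 17% of all genes tested were lower and 16.1% higher. With limma on log2(TPM + 1), which differs from the edgeR analysis in test, scale, pseudocount and gene filter together, 7 of the 14 were lower and 7 higher, with a median of -0.01. The median of all genes tested was 0.36 there, against -0.15 with edgeR. The 10 pathway genes were called lower by limma as well, with log2 differences from -2.82 (Psmb8) to -1.16 (Erap1). Limma called 7.38% of all genes lower and 22.2% higher.

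Nlrc5, the transactivator, was the least abundant of the 10 genes in 15 of 16 tumors (Erap1 was lowest in R26P170). It had 1.65 TPM in 29048, 2.67 in 38594A, 2.88 in 29050A, 5.62 in R26P98 and 0.558 in R26P87. Outside the CNS it ranged from 1.77 (43998A) to 64.5 TPM (R26P170), with a median of 12.3. The extracranial tumor 43998A lay within the intra-CNS range and 43992A (4.84 TPM) lay below R26P98, while the other 9 tumors lay above the intra-CNS group. The log2 fold change was -3.1 ± 0.75 (SE, edgeR adjusted p = 0.0049), the largest error of the 10. Relative to H2-K1, Nlrc5 had a log2 difference between the groups of -0.08 ± 0.39 (exact permutation p = 0.84, adjusted 0.92).

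Among the 5 intra-CNS tumors the genes kept one order at its ends: R26P98 was highest and R26P87 lowest for all 10. Outside the CNS, R26P115 was lowest for 8 of 10 genes in TMM-normalized counts, the exceptions being Nlrc5 (43998A) and Erap1 (43987A). The highest place was shared among R26P170 (H2-K1, B2m, Tap1 and Nlrc5), 43825B (H2-D1 and Psmb8), 43990A (Psmb9 and Erap1), 43992A (Tapbp) and 43998A (Tap2). The heat map of the levels shows these departures from a common order.

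**Figure D3:**
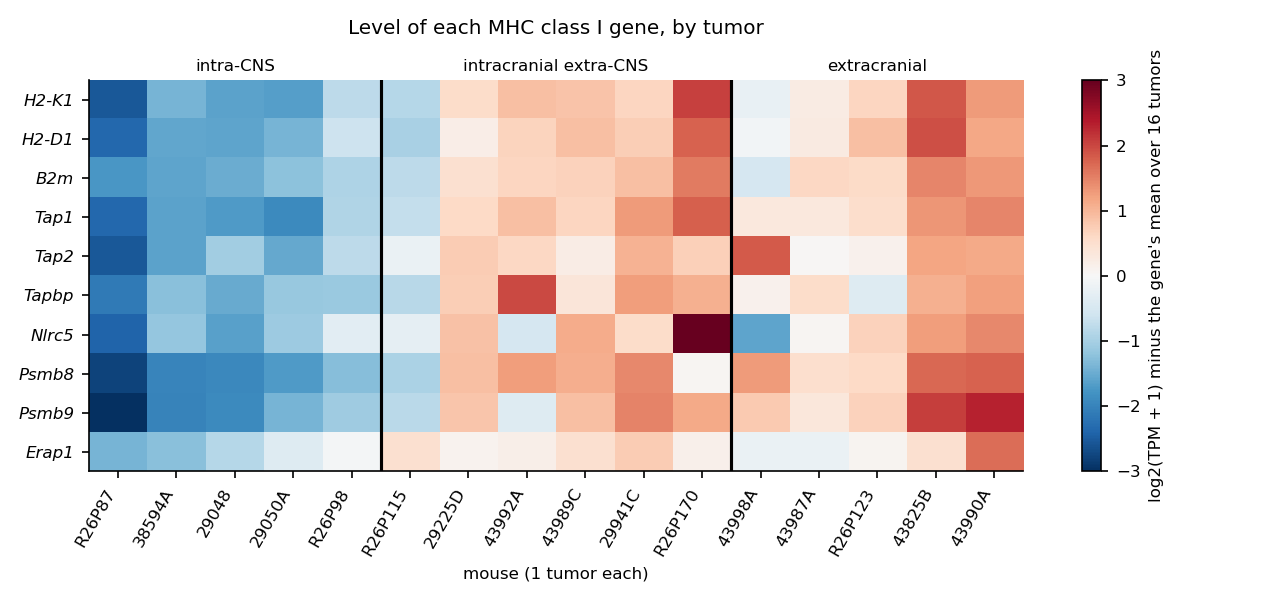
Level of each gene in each tumor as log2(TPM + 1) minus the mean of the gene over the 16 tumors, with tumors sorted by their mean within each site. Blue cells are below and red cells above the mean, and colors saturate at the ends of the scale; R26P87 is lowest in each row, and Tap2 in 43998A, Tapbp in 43992A and Nlrc5 in R26P170 stand above the other genes of the same tumor.

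Over the 11 tumors outside the CNS, Pearson's r of log2(TPM + 1) between pairs of the 10 genes had a median of 0.58 and was above 0 for 43 of 45 pairs, from -0.11 (Tap2 with Nlrc5) to 0.97 (H2-K1 with H2-D1). H2-K1 with B2m followed at 0.95. Both genes of a pair are measured in the same library, and so share its depth and the composition of the tumor. Nlrc5 was compared with each of the other 9 genes, and adjusted p-values are over these 9 relations. With H2-K1, r was 0.79 (permutation p = 0.0057, adjusted 0.026) and Spearman's rho 0.75 (permutation p = 0.0099, adjusted 0.018). With B2m, r was 0.8 (permutation p = 0.0035, adjusted 0.026) and rho 0.75 (permutation p = 0.01, adjusted 0.018), and with H2-D1, r was 0.73 (permutation p = 0.014, adjusted 0.041) and rho 0.83 (permutation p = 0.0027, adjusted 0.018). Without R26P170 and 43998A, the tumors farthest from the median of Nlrc5, r was 0.66 for H2-K1 and B2m and 0.67 for H2-D1. With Tap1, r was 0.68 (permutation p = 0.024, adjusted 0.054) and rho 0.76 (permutation p = 0.0085, adjusted 0.018), and without these tumors r was 0.6. With Psmb9, r was 0.54 (permutation p = 0.086, adjusted 0.15) and rho 0.75 (permutation p = 0.01, adjusted 0.018), with r = 0.9 without those tumors. For Tap2, Tapbp, Psmb8 and Erap1 r was -0.11 to 0.37 and rho 0.14 to 0.43, and none passed after adjustment (adjusted permutation p from 0.29 to 0.98). Without R26P170 and 43998A, r was 0.56 in place of -0.11 for Tap2, 0.61 in place of -0.01 for Psmb8, 0.53 in place of 0.37 for Erap1 and 0.08 in place of 0.27 for Tapbp.

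**Figure D4:**
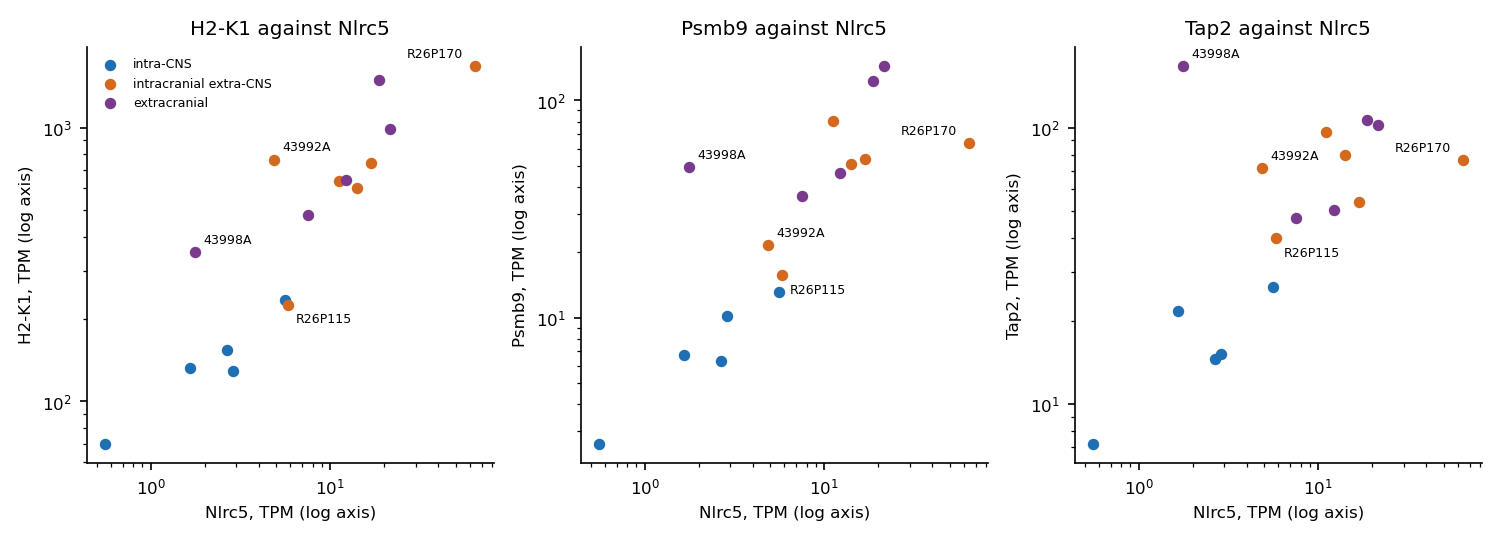
H2-K1, Psmb9 and Tap2 against Nlrc5 (TPM, both axes logarithmic), with 1 point per tumor, colored by site. H2-K1 is higher where Nlrc5 is higher, while 43998A combines 1.77 TPM of Nlrc5 with 167.5 TPM of Tap2, the highest Tap2 value of the series.

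The second comparison asked whether the pathway differed by site among the tumors outside the CNS, with the 6 intracranial extra-CNS tumors set against the 5 extracranial ones. Of the 10 genes, 0 were called by edgeR (adjusted p from 0.54 to 0.99), 0 by DESeq2 and 0 by limma on TPM, and 0 had an unadjusted p under 0.05. Of the 21261 genes tested, 1 was called by edgeR (0.00470%), the antisense gene Ttc39aos1, and 12.3% had an unadjusted p under 0.05. DESeq2 called 0.842% of all genes lower in the intracranial extra-CNS tumors and 1.46% higher. Limma on log2(TPM + 1) called 0.0055% higher and 0 lower. All 10 genes overlapped between the groups. H2-K1 had a mean of 776 ± 485 TPM (SD, n = 6) in the intracranial extra-CNS tumors and 791 ± 458 TPM (SD, n = 5) in the extracranial ones, and B2m 2651 ± 1222 and 2861 ± 1319 TPM. The log2 fold changes ran from -0.73 ± 0.48 (SE) for Psmb9 to 0.68 ± 0.72 for Nlrc5. The SEs of the 10 genes ran from 0.34 to 0.72 on this scale. The site of 43990A differs between the labels and the study's sample table, and with this tumor counted as intracranial extra-CNS the log2 fold change was 0.09 for H2-K1 (from -0.02), 0.1 for B2m (from -0.09) and 0.58 for Erap1 (from -0.13), none of them called. Each site held tumors with high and low levels: R26P170 and R26P115 were both intracranial extra-CNS, with 1682 and 225.9 TPM of H2-K1.

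**Figure D5:**
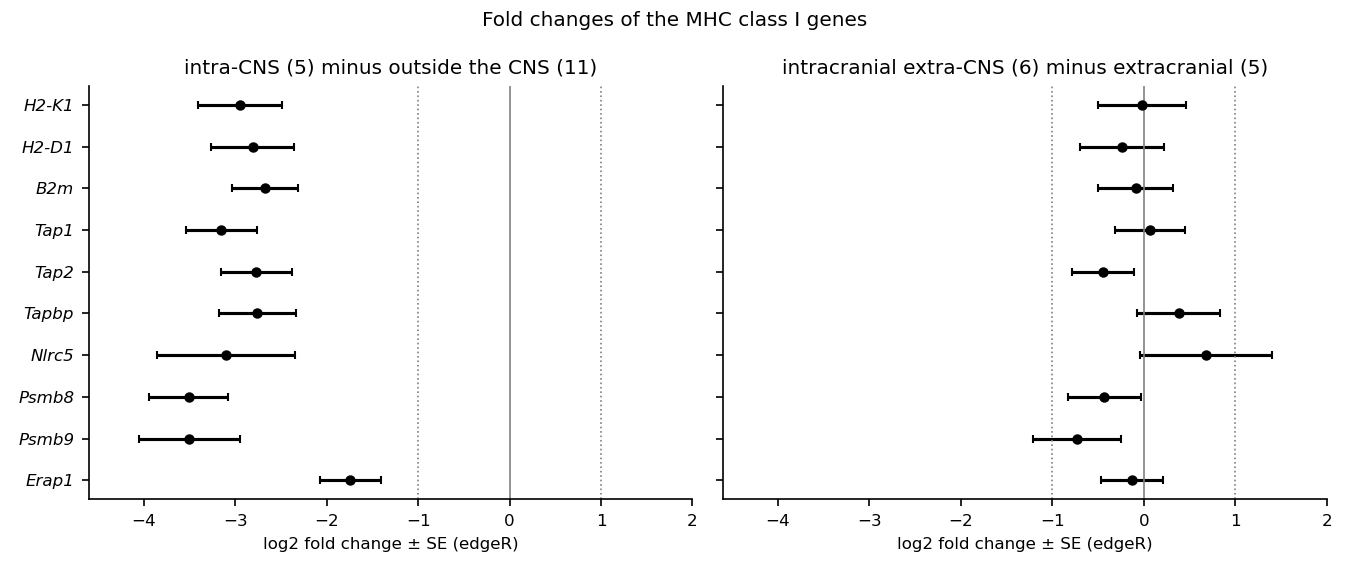
log2 fold change with its SE from edgeR for each gene, for intra-CNS minus the 11 tumors outside the CNS (left) and intracranial extra-CNS minus extracranial (right). Dotted lines mark a log2 fold change of 1 in either direction; on the left every gene lies below the lower line, from -3.51 to -1.74, and on the right every gene lies between -0.73 and 0.68.

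The tumor groups differed in day of tamoxifen and in scheme of mouse names, and the first comparison was repeated within each. Among the 7 tumors induced at E6 (5 intra-CNS, with R26P170 and 43825B outside the CNS), all 10 genes were called lower, with log2 fold changes from -4.51 (Nlrc5) to -1.67 (Erap1), as were 10.6% of all genes tested. R26P170 and 43825B had the highest H2-K1, H2-D1 and B2m levels of the series. Among the 11 mice with plain numbers (3 intra-CNS) all 10 were called lower, from -3.86 to -1.97, and 11.5% of all genes were. Among the 5 R26P mice (2 intra-CNS) 0 of the 10 genes and 0 of all genes were called by edgeR (3514 genes had an unadjusted p under 0.05), with log2 fold changes from -3.68 (Nlrc5) to -1.46 (Erap1) and edgeR adjusted p-values from 0.23 to 0.31. Against each site outside the CNS alone all 10 genes were called lower, with log2 fold changes from -3.38 to -1.68 for intracranial extra-CNS (11.9% of all genes) and from -3.83 to -1.79 for extracranial tumors (12.7%). All 10 were also called lower without 29048 and R26P115, the tumors with the highest Smarcb1 level, from -3.59 to -1.68 (12.9% of all genes).

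Leukocyte transcripts also differed between the groups. Of the 8 leukocyte markers all 8 were called lower in the intra-CNS tumors, and their summed level was 162 to 287 TPM there, 345 to 1700 TPM in the intracranial extra-CNS tumors and 873 to 2380 TPM in the extracranial ones. Ptprc, which encodes CD45, was 8.09-fold lower (edgeR adjusted p = 8.2e-05) and Cd53 7.1-fold (adjusted p = 3e-05). All 12 macrophage markers were called lower, with sums of 863 to 1390, 1090 to 7830 and 4900 to 11200 TPM in the same order of groups, and with Cd68 9.75-fold and Csf1r 4.73-fold lower. Of the 12 T and NK cell markers 8 were called lower, with sums of 2.38 to 9.43, 9.88 to 56.1 and 13.5 to 76.6 TPM. Limma on log2(TPM + 1) called 4 of these 12 lower and DESeq2 10, and edgeR called 6 to 10 when single tumors were left out (6 without 29048, 38594A or R26P87), and 6 when numbered against R26P mice was a term of the fit. Cd3e was at 0 TPM in at least 1 tumor of either side and Cd3d at 0 TPM in at least 1 intra-CNS tumor. R26P98 had the highest and R26P87 the lowest leukocyte sum among the intra-CNS tumors, and R26P115 the lowest outside the CNS, as for most class I genes. The part of leukocyte RNA in the class I levels was not tested.

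Within the 11 tumors outside the CNS each class I gene was set against the leukocyte sum. For the 10 relations, r was -0.06 (Erap1) to 0.62 (Psmb8, permutation p = 0.045, adjusted over the 10 relations 0.18) and rho -0.15 to 0.49, and none passed after adjustment. For H2-K1, r was 0.47 (permutation p = 0.14, adjusted 0.36) and rho 0.27 (permutation p = 0.42, adjusted 0.7). Without 43825B and R26P115, the tumors farthest from the median sum, r was -0.31 for H2-K1 and -0.6 (Tapbp) to 0.06 (Psmb9) over the 10 genes. Leaving out the extremes of the sum also narrows its range.

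Other cell types differed as well. All 6 neutrophil and all 7 fibroblast markers were called lower in the intra-CNS tumors, with sums of 7.22 to 13.6 against 3.54 to 937 TPM and of 112 to 533 against 618 to 11500 TPM. S100a8 was 113-fold and Col1a2 48.3-fold lower. Limma called 4 of the 6 neutrophil and 6 of the 7 fibroblast markers lower. The sums of the neural progenitor and neuron markers were 531 to 2290 against 18.6 to 474 TPM, with Sox2 20.4-fold higher. Of the 8 microglia markers 1 was called lower and 2 higher, with sums of 452 to 800 against 266 to 1670 TPM, and neither P2ry12 nor Tmem119 was called. Oligodendrocyte sums were 53.9 to 7200 against 43.1 to 148 TPM, with 6 of 8 markers called higher and Mbp 12.8-fold. These calls rested on 29048: without it 0 of 8 markers were called and their median log2 fold change went from 3.77 to -0.22, and DESeq2 called 0 of 8 with it. Endothelial markers (2 of 7 called lower, Cdh5 but not Pecam1), B cell markers (1 of 6 lower and 1 higher, Cd79a not called) and dendritic cell markers (0 of 6, Flt3 and Xcr1 included) had sums that overlapped between the groups. In these lists and the microglia list, leaving out single tumors moved the called counts by at most 1 marker. The part of these cells in the class I levels was not tested.

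Of the other class I heavy chain genes, 18 of 20 had counts, and 9 were called lower and 2 higher in the intra-CNS tumors, with a median log2 fold change of -2.47. H2-Q6 and H2-Q7 were listed at 0 in all tumors. H2-T23, which encodes the nonclassical Qa-1 molecule, had 8.32 to 34.8 TPM in the intra-CNS tumors and 75.8 to 354.2 TPM outside, 9.93-fold lower (edgeR adjusted p = 0.00013). H2-M3, whose product presents formylated peptides, was 5.69-fold lower (adjusted p = 0.00032), with 6.56 to 12.1 against 9.33 to 72.5 TPM. H2-Q4 was 10.2-fold lower (adjusted p = 0.00068). Cd1d1, a class I-like gene whose product presents lipids, ran the other way, with 13.3 to 120.9 TPM in the intra-CNS tumors and 3.6 to 12.8 TPM outside, 6.42-fold higher (edgeR adjusted p = 8e-05). H2-M5 was the second gene called higher, at 7.12-fold. Several of these genes share sequence with H2-D1, and their counts carry that uncertainty.

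Of the 14 other processing and loading genes, 8 were called lower and 0 higher in the intra-CNS tumors, with a median log2 fold change of -1.35. Pdia3, which encodes ERp57, was 3.4-fold lower (341.6 to 498.1 against 734.6 to 1241 TPM, edgeR adjusted p = 8.8e-06). Calr, which encodes calreticulin, was 2.64-fold lower (adjusted p = 1.9e-05) and Hspa5, which encodes BiP, 2.56-fold (adjusted p = 0.00039). Psme2, a subunit of the proteasome activator PA28, was 2.82-fold lower (adjusted p = 0.00066). With limma on log2(TPM + 1), 4 of these 14 genes were called lower and 0 higher.

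Of the 21 genes of class I transcription and interferon gamma signalling, 11 were called lower and 1 higher, with a median log2 fold change of -1.08. Irf1, a transcription factor that interferon gamma induces, had 5.01 to 12.8 TPM in the intra-CNS tumors and 24.8 to 101 TPM outside, 8.98-fold lower (edgeR adjusted p = 8.6e-06). Relb and Rela, which encode NF-kB subunits, were 6.65-fold (adjusted p = 0.00013) and 2.97-fold lower (adjusted p = 0.00014), and Ifngr1, a chain of the interferon gamma receptor, 3.2-fold (adjusted p = 7.8e-05). Jak2, a kinase of that receptor, was the gene called higher, at 2.67-fold. Ifng itself was at 0 TPM in all 5 intra-CNS tumors and at most at 1.06 TPM elsewhere, with a median of 0. The RFX factor genes with which Nlrc5 acts were not lower: Rfx5 had a log2 fold change of 0.95 ± 0.26 (SE) and Rfxank of 0.91, both short of the fold threshold, and were called higher by limma on log2(TPM + 1). That analysis called 4 of the 21 genes lower and 3 higher, and without 29048 edgeR called 7 lower and 2 higher.

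All 20 interferon-induced genes were called lower in the intra-CNS tumors, with a median log2 fold change of -3.73. Ifi35 was 11.7-fold lower (5.37 to 14.4 against 37.3 to 135.8 TPM, edgeR adjusted p = 1.7e-05) and Bst2, which encodes tetherin, 22.1-fold (28.3 to 78 against 189 to 1484 TPM, adjusted p = 2e-05). Ifit1 was 38.1-fold lower (adjusted p = 5.5e-05) and Gbp2, a guanylate-binding protein gene, 23-fold (adjusted p = 8.3e-05). In the comparison by site outside the CNS, 0 genes of each of these 5 lists were called.

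The genes most like the mean log2(TPM + 1) of the 10 over all 16 tumors, among 15802 other genes with a mean of at least 1 TPM, were Parp14 (r = 0.98), Dtx3l (0.97), Rnf213 (0.97), H2-T23 (0.97) and Parp12 (0.96). Genes of a tumor are measured in the same library and share its site, the intra-CNS group lies apart from the others, and these values are a description without a test. Parp14 had 1.95 to 5.2 TPM in the intra-CNS tumors and 10.7 to 51.6 TPM outside. Over the 11 tumors outside the CNS alone the 5 most alike were Dtx3l (r = 0.95), Crlf3 (0.93), Srgap2 (0.91), Parp14 (0.91) and Agrn (0.91), so that Dtx3l and Parp14 stood in both lists. Agrn was like the class I genes among those 11 tumors but lay higher in the intra-CNS group, at 83.9 to 136.9 TPM there and 16.3 to 82.8 TPM outside.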

How the data were processed

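RNA-seq data of 16 primary rhabdoid tumors, 1 per mouse, were used. Reads (100 bp, paired, stranded, polyadenylated RNA) were trimmed with Trim Galore, mapped to mm10 and counted per gene with STAR 2.5.3a by the authors, who deposited raw counts per gene and TPM values per gene. The annotation and the gene lengths behind TPM are not given in the sources used here. After genes without counts were removed, 21854 genes were tested (21261 among the 11 tumors outside the CNS) with edgeR 4.0.16 (TMM, quasi-likelihood, R 4.3.3) and Benjamini-Hochberg adjustment, and called where the adjusted p was below 0.05 with more than a log2 unit of difference. The code was tested on simulated data. Alternatives used DESeq2 1.42.0 and limma 3.58.1 on log2(TPM + 1) of genes with a mean of at least 0.1 TPM. Ratios and correlations used exact or 100000-resample permutation tests (scipy 1.17.1). SEs are from edgeR, or from the variances of both groups for ratios. Each replicate is the tumor of a separate mouse.

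The 10 genes and the lists were chosen with earlier results of these data known. The text names all 10 genes, up to 4 called genes per pathway list by smallest adjusted p, constitutive counterparts of inducible subunits, the first 2 markers of each marker list (2 of these are not reported here), the 5 most alike genes and Smarcb1. Genes outside this rule (H2-M5, H2-Q6, H2-Q7, Jak2, Ifng, Rfx5, Rfxank, Psmb10, Psmb7 and Ttc39aos1) and the 10 ratios were chosen after levels were seen. Sites followed the labels; subgroups came from the study and define no group. The nose tumor of 43990A is extracranial in the labels and intracranial extra-CNS in the study's own sample table. It was analysed as extracranial, and as intracranial in an alternative. The stranded library allows overlapping opposite-strand genes (Psmb9 and Tap1) to be separated only if counting used strand, which is not given in the sources used here.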

Additional observations from a re-analysis of the deposited data

Results flagged for a closer look

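Over 60 groups tested for an outlying tumor (10 genes and 10 ratios in 3 groups), chance alone would flag about 1 in 20. The ratio of Tap2 to Tap1 in the extracranial tumor 43998A, 4.25, stood apart from the other 4 extracranial tumors, at 1.1 to 1.34 (on the log2 scale the gap was 0.86 of the range). Tap2 had 5639 counts in that tumor and Tap1 1572. In the same tumor Nlrc5 was lowest and Tap2 highest among the 11 tumors outside the CNS.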

How the results depend on the processing

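All 10 genes were called lower in intra-CNS tumors in 28 of 29 alternatives, 16 of which left out 1 tumor each, and the exception was the R26P mice alone, where 0 of the 10 and 0 genes in all were called (5 tumors, with 3514 genes at an unadjusted p under 0.05). The alternative without both 29048 and R26P115 was chosen after seeing the data. Of the 29, the alternative without the fold threshold reused the main fit and could not lose a call. The number of genes called was 5689, and 3533 among tumors induced at E6; without 1 tumor it ran from 4766 (without 38594A) to 6649 (without R26P115). On log2(TPM + 1) 25.0% of the called genes were lower in intra-CNS tumors, against 50.3% in the main analysis. The ratios of Psmb8, Psmb9 and Psmb10 to their counterparts stayed past the threshold without any 1 tumor (largest adjusted exact permutation p = 0.02), while that of Erap1 to H2-K1 ranged from an adjusted p of 0.01 to 0.23.

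By site outside the CNS, 1 gene was called, against 490 with DESeq2, 0 in E8 tumors alone and 0 to 3 without 1 tumor; 0 of the 10 genes were called in each of the 20 alternatives. Directions of 6 of the 10 genes turned in some alternatives. H2-K1 was at 0.04 in E8 tumors alone and 0.09 with 43990A as intracranial, B2m at 0.1 with 43990A so placed, Erap1 at 0.04 and 0.58 in these analyses, Nlrc5 at -0.04 in E8 tumors alone and Tap1 at -0.04 in both TPM analyses. Without 1 tumor the log2 fold changes ranged from -0.39 to 0.39 (H2-K1), -0.55 to 0.18 (H2-D1), -0.33 to 0.15 (B2m), -0.18 to 0.27 (Tap1), -0.2 to 0.92 (Nlrc5) and -0.27 to 0.31 (Erap1). The cause of these changes was not tested. No paired analysis was possible because no 2 tumors came from one animal. Counts limit Psmb9 and Nlrc5 most, with 19 and 35 counts in R26P87.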
